A study of Mus musculus with 9 samples.

Results

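The genes of endothelial identity and vessel signalling were followed in whole mouse hearts on 9 Affymetrix expression arrays. The module was named as 34 genes, and 33 of them were measured among 30142 genes with a single-symbol probe set; each of the 33 had 1 such probe set. Egfl7, a protein that endothelial cells secrete, has no value here because its probe set also carries the symbols of a microRNA in the same locus. On the mean of the 9 arrays 27 of the 33 genes exceeded a background level, the 95th percentile of negative control probe sets on an array, which averaged 7.22 on the log2 scale. The 6 below it were Angpt1, Angpt2, Apln, Sox17, Cldn5 and Plvap, and of these Plvap exceeded it on 6 arrays, Cldn5 on 2 and the other 4 on 0.

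All hearts came from immunodeficient nude mice whose left anterior descending coronary artery had been tied permanently, and mice with an ejection fraction under 50% entered the study 3 weeks later, in chronic heart failure. Hearts were collected 6 weeks after treatment. The vesicle group (3 arrays) had received the extracellular vesicles that 500000 cardiovascular progenitor cells secrete in 48 hours, and the cell group (3 arrays) had received 500000 of those cells. The sham group (1 array) had the needle inserted 3 times with nothing injected, so that it too was an infarcted heart, and the control group (2 arrays) had received the culture medium alpha-MEM. The protocols describe the cell grafts as 10 uL injected through the closed chest, under echocardiography, at each of 3 sites beside the infarct. RNA was taken from the whole heart and not from sorted vessels, and the labels do not name the species of the progenitor cells. Sample titles place vesicle array 1, cell array 1, the sham array and control array 1 in an experiment numbered 9, and the other 5 arrays in an experiment numbered 1, without saying what the numbers stand for. They also carry a VTS number, likewise unexplained, which sets 1 vesicle array beside 1 cell array 3 times: VTS 3 is experiment 9, and experiment 1 holds VTS 1 (vesicle, cell and control arrays 2) and VTS 2 (vesicle and cell arrays 3, with no control). Nothing in the labels says that each array is a separate animal, so p-values measure only the spread between these arrays, which may be technical.

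Endothelial cells line every vessel of the heart and hold together through VE-cadherin and claudin junctions, under transcription factors of the ETS and SoxF families. Notch and ephrin signals separate arterial from venous endothelium, angiopoietins acting on the Tie receptors keep vessels quiescent or loosen them, and apelin and adrenomedullin signal through receptors on the endothelium. After a coronary tie the border of the infarct is a known site of capillary growth.

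The 9 arrays were alike in their overall level, with medians over all genes between 5.56 and 5.63. Heart muscle RNA was plain in each: Myh6, the adult ventricular myosin of the mouse, lay between 12.84 and 12.96. One array stood apart in another tissue's transcripts. Vesicle array 3 held Sftpc, a surfactant gene of lung epithelium, at 9.75 and the airway gene Scgb1a1 at 8.90, where the other vesicle arrays held 4.49 and 4.44 for Sftpc; the sham array held Sftpc at 6.35, and cell and control arrays lay between 4.28 and 4.52. Lung is rich in endothelium, so values without vesicle array 3 are also given below for the module as a whole, Cd34 and Efnb2. For the other genes they are not given.

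**Figure D1:**
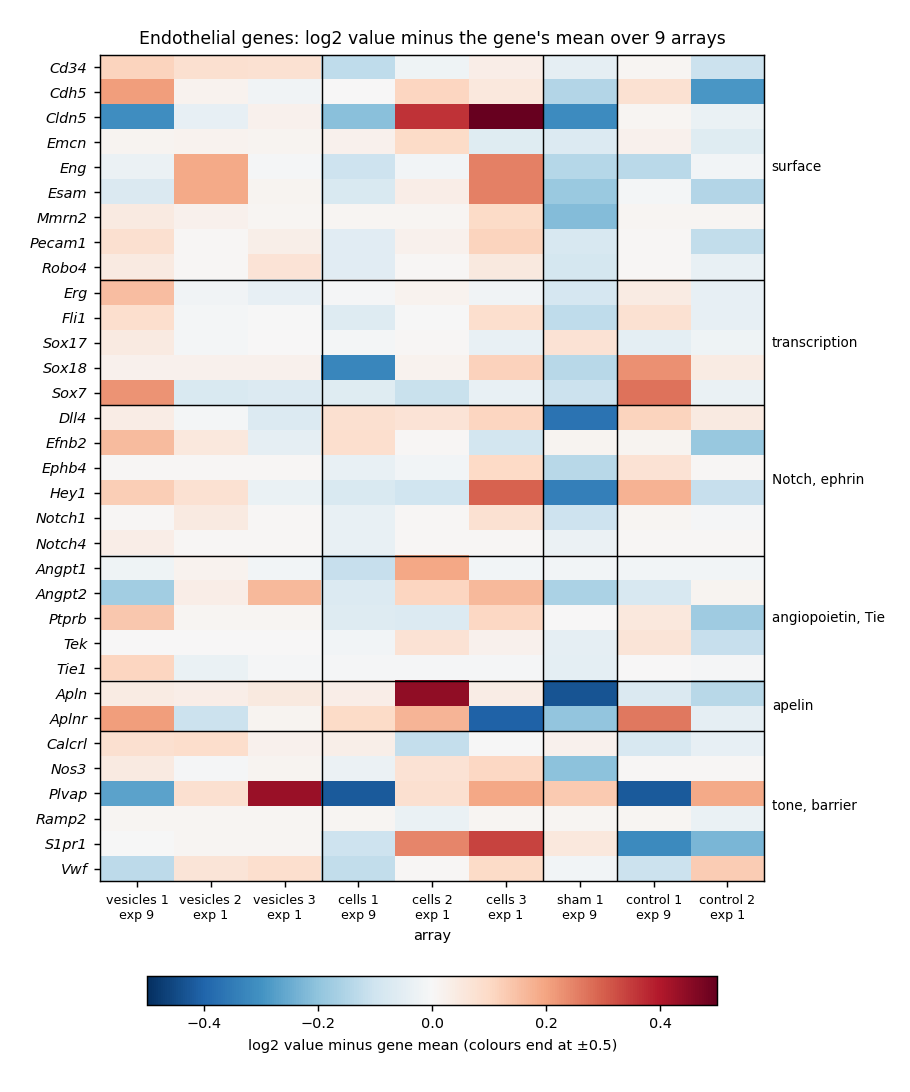
Log2 value of each of the 33 measured endothelial genes (rows, grouped by role) on each of the 9 arrays (columns), centred on the gene's own mean. Blue fields fill much of the sham column, where 15 genes had their lowest value, and red fields gather in the column of cell array 3, where 11 genes had their highest.

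No endothelial gene passed limma's test between the injected groups. After vesicles 0 of 33 genes had an adjusted p under 0.05 against control, as did 0 of all 30142 genes (0.0%); after cells the counts were 0 of 33 and again 0.0% of all genes, and for vesicles against cells 0 of 33 and 0.0%. Least squares without moderation and a variance trend also called 0 of the 33. Adjusted p-values of the 33 genes lay between 0.675 and 1 across these comparisons. At an unadjusted p under 0.05 there were 3 endothelial genes after vesicles, where 6.44% of all genes (1942) reached it, 2 after cells, where 6.73% (2029) did, and 1 between vesicles and cells, where 4.34% (1309) did. Those shares of the module are 9.09%, 6.06% and 3.03%, which is close to the shares over all genes. In a whole heart a lower value for an endothelial gene cannot tell fewer endothelial cells from less RNA in each.

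Cell array 3 was the highest of the 9 arrays for 11 of 33 genes, where 14.9% of all genes and 26.1% of the 6667 genes above the background level had their highest value there.

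By value, most of the module lay above control in the vesicle and cell hearts, and by little. After vesicles 25 of 33 genes were higher, where 39.5% of all genes and 56.9% of those 6667 brighter genes were; the median log2 difference was 0.033 in the module, −0.012 over all genes and 0.0098 over the brighter genes. After cells 25 of 33 were higher too (44.1% of all genes, 66.5% of the brighter ones), with a median of 0.023 in the module, −0.0064 over all genes and 0.020 over the brighter genes. Of the 27 endothelial genes that are themselves above the background level, 21 were higher after vesicles (77.8%, median 0.033) and 20 after cells (74.1%, median 0.014), so that after cells their median lay below that of the brighter genes. Vesicles and cells share their control arrays, so these counts are not independent of each other. Control array 2 held much of both: without it 17 genes were higher after vesicles (median 0.0069) and 12 after cells (median −0.011). Without vesicle array 3 there were 25 higher after vesicles (median 0.028). Quantile normalization left 22 genes higher after vesicles and 17 after cells, and centring each array on its median left 26 and 29. Centring raised the median of all genes too, to 0.0095 after vesicles and 0.023 after cells. The medians of the module were then 0.054 and 0.053.

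The surface and junction genes were the largest group, and 8 of its 9 genes were higher after vesicles and 9 of 9 after cells, where 56.9% and 66.5% of the brighter genes were. In experiment 9 alone 6 of 9 were higher after vesicles (median 0.041) and 3 of 9 after cells (median −0.063), and in experiment 1 all 9 were higher after each (medians 0.11 and 0.14). Cdh5, the VE-cadherin that joins endothelial cells, had log2 values of 10.48, 10.29 and 10.25 on the vesicle arrays, 10.27, 10.38 and 10.33 on the cell arrays, 10.13 on the sham array and 10.35 and 9.98 on the control arrays. Control array 2 was the lowest of the 9, control array 1 lay among the vesicle and cell arrays, and the groups overlapped. The differences from control were 0.20 ± 0.10 after vesicles (SE, from 3 vesicle, 3 cell and 2 control arrays) and 0.19 ± 0.10 after cells, with adjusted p of 0.675 and 0.683 in limma, and they were 0.038 and 0.021 without control array 2.

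Cd34, a sialomucin of capillary endothelium and of some progenitors, was the surface gene on which vesicle hearts stood clear of the rest. It read 9.34, 9.31 and 9.30 on the vesicle arrays, 9.10, 9.21 and 9.26 on the cell arrays, 9.18 on the sham array and 9.24 and 9.12 on the control arrays. Each vesicle array lay above each of the other 6. The difference was 0.14 ± 0.061 against control (adjusted p = 0.675 in limma) and 0.13 ± 0.054 against cells (adjusted p = 0.92). Without vesicle array 3 these values were 0.14 and 0.14, and without control array 2 the difference from control was 0.046.

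Cldn5, a claudin of endothelial tight junctions and one of the dim genes, varied more by array than by group. Its log2 values were 6.79, 7.06 and 7.12 on the vesicle arrays, 6.89, 7.46 and 7.62 on the cell arrays, 6.79 on the sham array and 7.11 and 7.07 on the control arrays. Only cell arrays 2 and 3 exceeded the background level, and the vesicle arrays overlapped both other groups. The difference of vesicles from cells was −0.33 ± 0.14 (adjusted p = 0.92 in limma). For the other 6 surface genes the differences after vesicles ran from 0.017 ± 0.033 for Mmrn2, an endothelial matrix protein, to 0.10 ± 0.12 for Esam, an adhesion molecule at tight junctions. After cells they ran from 0.013 ± 0.039 for Robo4, a guidance receptor that steadies vessels, to 0.13 ± 0.12 for Esam. Between those ends lay Pecam1, the junction protein CD31, Eng, a co-receptor for BMP and TGF-beta ligands, and Emcn, a sialomucin of capillaries and veins.

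**Figure D2:**
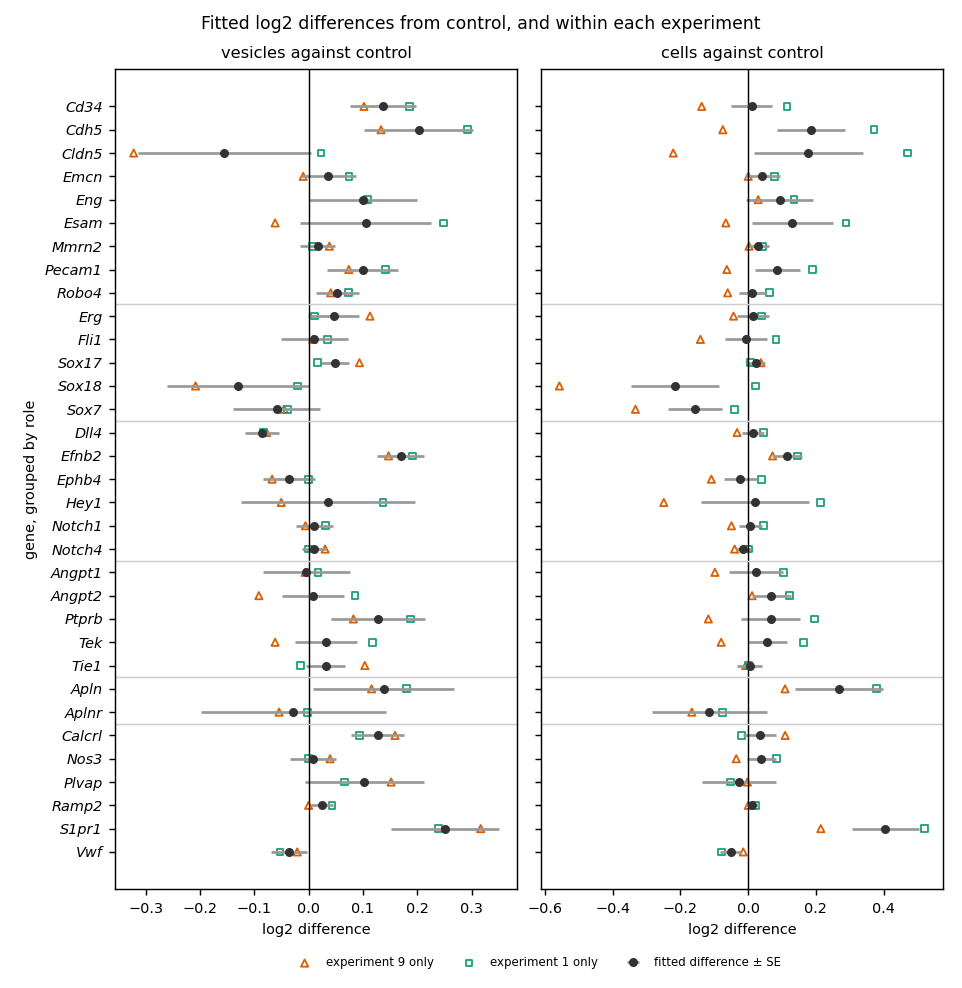
Fitted log2 difference from control with its standard error (dots and bars) for each of the 33 genes after vesicles (left) and after cells (right), with the difference inside experiment 9 (triangles) and inside experiment 1 (squares). After cells the triangles lie left of the squares for 29 of 33 genes, an order that 45.5% of all genes and 60.6% of the brighter genes had. In either panel 0 genes passed the test.

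Transcription factors of the endothelium showed no common direction. After vesicles 3 of 5 were higher and after cells 2 of 5. Erg and Fli1, the ETS factors that hold endothelial identity, differed from control by 0.046 ± 0.047 and 0.011 ± 0.062 in vesicle hearts, and by 0.013 ± 0.047 and −0.0075 ± 0.062 in cell hearts. Among the SoxF factors, which act in arterial specification and vessel growth, the lowest p was that of Sox7, after cells. Sox17, under the background level on all 9 arrays, differed by 0.049 ± 0.025 after vesicles and 0.023 ± 0.025 after cells.

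Sox7 read 7.84, 7.54 and 7.55 on the vesicle arrays, 7.55, 7.51 and 7.58 on the cell arrays, 7.51 on the sham array and 7.89 and 7.58 on the control arrays. Vesicle array 1 and control array 1, both of experiment 9, stood above the other 7 arrays, and the 3 cell arrays all lay below both controls. After cells the difference was −0.16 ± 0.080 (adjusted p = 0.682 in limma) and after vesicles −0.059 ± 0.080. Of the module, Sox7 was the 1 gene with every cell array below both control arrays, a pattern that 5.57% of all genes had. Sox18, picked out after its values were seen, held the same value of 8.39 on all 3 vesicle arrays, below 8.60 and 8.41 on the control arrays, and 8.04, 8.38 and 8.48 on the cell arrays; its difference was −0.13 ± 0.13 after vesicles and −0.22 ± 0.13 after cells.

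The arterial and venous ligand and receptor genes held the lowest p-values after vesicles, in opposite directions. Efnb2, the ephrin ligand of arterial endothelium, had log2 values of 8.35, 8.24 and 8.14 on the vesicle arrays, 8.27, 8.19 and 8.10 on the cell arrays, 8.20 on the sham array and 8.20 and 8.0 on the control arrays. Within each experiment every vesicle and cell array lay above its own control, although across experiments the groups overlapped. The difference was 0.17 ± 0.044 after vesicles (fold 1.12, unadjusted p = 0.0116, adjusted p = 0.675 in limma) and 0.11 ± 0.044 after cells (fold 1.08, adjusted p = 0.682). It was 0.15 in experiment 9 and 0.19 in experiment 1 after vesicles, and 0.072 and 0.15 after cells. Without vesicle array 3 the vesicle difference was 0.19.

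Dll4, the Notch ligand of arterial and sprouting tip cells, read 7.94, 7.89 and 7.83 on the vesicle arrays, 7.98, 7.97 and 8.01 on the cell arrays, 7.53 on the sham array and 8.02 and 7.95 on the control arrays. All 3 vesicle arrays lay below every cell and control array, and the sham array lay far below them all. Vesicle hearts were lower by 0.086 ± 0.032 against control (log2 difference −0.086, unadjusted p = 0.0435, adjusted p = 0.675 in limma) and by 0.10 against cells (−0.10 ± 0.029, adjusted p = 0.92). With the sham array counted among the controls the difference of vesicles turned to 0.044, since that array holds the lowest Dll4 value. After cells Dll4 differed from control by 0.014 ± 0.032.

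The remaining genes of this pathway stayed nearer to control. Notch1 and Notch4, the Notch receptors of endothelium, differed by 0.011 ± 0.034 and 0.0095 ± 0.022 after vesicles and by 0.0058 ± 0.034 and −0.014 ± 0.022 after cells. Hey1, a repressor that Notch switches on, differed by 0.035 ± 0.16 and 0.019 ± 0.16, and its spread was wide: 7.71, 7.66 and 7.55 on the vesicle arrays, 7.51, 7.48 and 7.88 on the cell arrays, 7.25 on the sham array and 7.76 and 7.47 on the control arrays. Ephb4, the venous receptor of Efnb2, stood at −0.035 ± 0.048 after vesicles and −0.023 ± 0.048 after cells. Of 15 other Notch pathway genes, 5 were higher after vesicles (median −0.017) and 9 after cells (median 0.0099), with an unadjusted p under 0.05 for 0 of them in either comparison; Adam10, a protease that cuts Notch receptors, had the lowest p after vesicles, at 0.087 ± 0.043.

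The promoters of the genes with an unadjusted p under 0.05 in a treatment comparison are shown for those that have a RefSeq entry here, Efnb2, Dll4 and Calcrl, each as the 250 bases before the transcription start, 5′ to 3′ on the gene's strand (GRCm38.p6). Capitals mark GGAA on either strand, the core that ETS factors such as Erg and Fli1 bind. They lie at chr8:8661243-8661492 on the minus strand for Efnb2, chr2:119325534-119325783 on the plus strand for Dll4 and chr2:84425267-84425516 on the minus strand for Calcrl.
Efnb2: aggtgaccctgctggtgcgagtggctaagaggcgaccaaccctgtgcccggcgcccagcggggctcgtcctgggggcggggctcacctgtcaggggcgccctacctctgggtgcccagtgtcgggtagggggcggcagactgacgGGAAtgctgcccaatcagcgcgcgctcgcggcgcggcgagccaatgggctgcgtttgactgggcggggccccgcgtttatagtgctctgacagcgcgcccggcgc
Dll4: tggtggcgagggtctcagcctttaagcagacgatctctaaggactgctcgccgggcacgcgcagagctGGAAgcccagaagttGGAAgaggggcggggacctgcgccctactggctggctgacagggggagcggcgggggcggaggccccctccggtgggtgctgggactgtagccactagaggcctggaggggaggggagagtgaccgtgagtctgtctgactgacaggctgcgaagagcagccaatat
Calcrl: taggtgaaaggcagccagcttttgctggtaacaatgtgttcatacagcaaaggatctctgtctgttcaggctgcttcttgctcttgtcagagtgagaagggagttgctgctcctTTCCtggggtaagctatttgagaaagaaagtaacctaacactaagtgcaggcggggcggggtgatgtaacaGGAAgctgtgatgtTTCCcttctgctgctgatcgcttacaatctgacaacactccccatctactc

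Efnb2 holds 1 GGAA, Dll4 2 and Calcrl 3. The longer AGGAAG, which contains GGAA, occurs once in the Calcrl window. Across 32851 RefSeq promoters of the same length 93.4% hold GGAA, with a median of 3, and 29.5% hold AGGAAG; of the 17 promoters listed for 15 of the 33 genes, 88.2% hold GGAA and 52.9% AGGAAG. A match describes the letters and is no evidence of binding in these hearts.

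**Figure D3:**
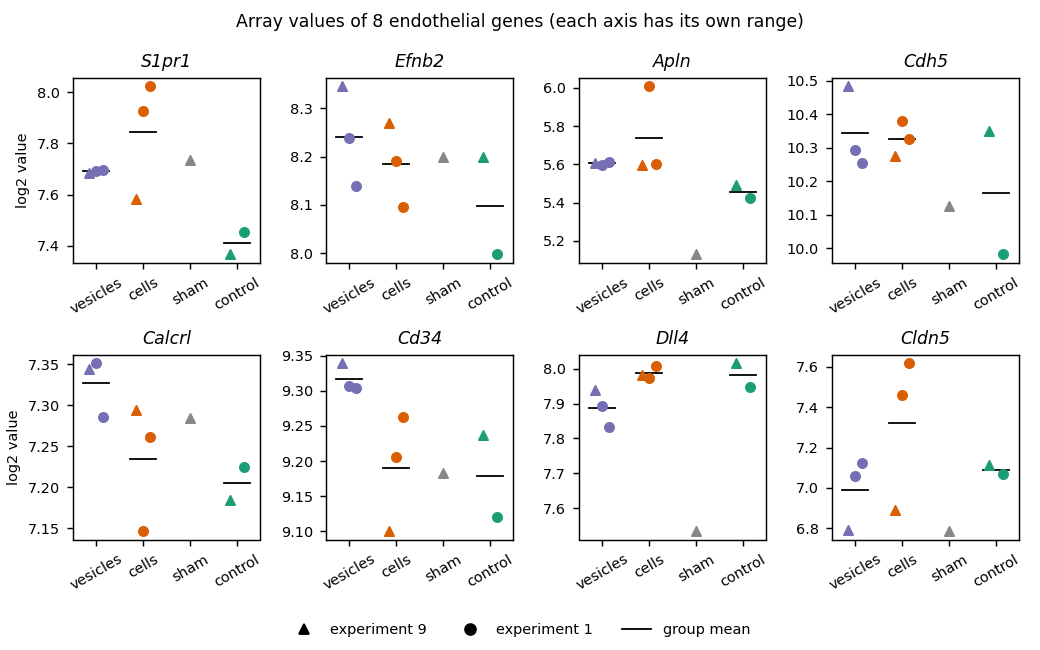
Log2 values of 8 endothelial genes on every array, by group, with triangles for experiment 9, circles for experiment 1 and a line at each group mean (sham has 1 array and no line). S1pr1 and Apln show all 6 arrays of treated hearts above both controls, Cd34 shows the vesicle arrays above all others, and in the Cdh5 panel control array 2 lies lowest.

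Angiopoietin and Tie genes lay close to control. Ptprb, the phosphatase that restrains the Tie receptor Tek and VE-cadherin, had the lowest unadjusted p of the group after vesicles, at 0.2; after cells, and between vesicles and cells, that of Angpt2 was the lowest. Ptprb read 9.52, 9.39 and 9.39 on the vesicle arrays, 9.32, 9.31 and 9.48 on the cell arrays, 9.38 on the sham array and 9.43 and 9.20 on the control arrays. The groups overlapped, and the differences of Ptprb were 0.13 ± 0.087 after vesicles (adjusted p = 0.707 in limma) and 0.066 ± 0.087 after cells. Tek, the angiopoietin receptor, and Tie1, its partner, differed from control by 0.033 ± 0.057 and 0.031 ± 0.036 in vesicle hearts, and by 0.057 ± 0.057 and 0.0042 ± 0.036 in cell hearts. Their ligands Angpt1, which activates Tek, and Angpt2, which endothelial cells release and which can block it, lay under the background level on all 9 arrays, with differences of −0.0043 ± 0.080 and 0.0088 ± 0.057 after vesicles.

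Apelin lay above control by value, and its receptor differed from control by less than its standard error. Apln, the peptide ligand that sprouting capillaries make, read 5.61, 5.60 and 5.61 on the vesicle arrays, 5.60, 6.01 and 5.60 on the cell arrays, 5.13 on the sham array and 5.49 and 5.43 on the control arrays. All 6 vesicle and cell arrays lay above both controls, and the sham array was lowest, but every one of the 9 values was under the background level. The difference was 0.14 ± 0.13 after vesicles and 0.27 ± 0.13 after cells (adjusted p = 0.797 and 0.682 in limma), and cell array 2 carried much of the cell value, which was 0.14 without it. Aplnr, the receptor, differed by −0.028 ± 0.17 after vesicles and −0.11 ± 0.17 after cells, with array values from 7.38 to 8.05.

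The largest difference from control in the module belonged to a receptor of vessel tone and barrier. S1pr1, which binds sphingosine 1-phosphate and tightens the endothelial barrier, had log2 values of 7.68, 7.69 and 7.69 on the vesicle arrays, 7.58, 7.93 and 8.02 on the cell arrays, 7.74 on the sham array and 7.37 and 7.46 on the control arrays. Both control arrays lay below all the others, the sham array included. The difference was 0.40 ± 0.099 after cells (fold 1.32, unadjusted p = 0.00874, adjusted p = 0.682 in limma) and 0.25 ± 0.099 after vesicles (fold 1.19, adjusted p = 0.675). It was 0.21 in experiment 9 and 0.52 in experiment 1 after cells, and 0.32 and 0.24 after vesicles. Pooling the sham array with the controls left 0.29 after cells and 0.14 after vesicles. S1pr1 and Apln were the 2 genes of the module with all 6 vesicle and cell arrays above both controls, where 1.08% of all genes and 1.78% of the brighter genes had that pattern.

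Calcrl, which with Ramp2 forms the adrenomedullin receptor of endothelium, read 7.34, 7.35 and 7.29 on the vesicle arrays, 7.29, 7.15 and 7.26 on the cell arrays, 7.28 on the sham array and 7.18 and 7.22 on the control arrays. The vesicle arrays lay above both controls and the cell arrays overlapped them. The differences were 0.13 ± 0.049 after vesicles (unadjusted p = 0.0474, adjusted p = 0.675 in limma) and 0.034 ± 0.049 after cells. Ramp2 held one identical value, 7.39, on 7 of 9 arrays and 7.35 on cell array 2 and control array 2. Such ties were common in the deposited values: 10 of the 33 genes had the same value on 3 or more arrays, as did 61.1% of all genes, and ties narrow the spread a test sees.

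Nos3, the endothelial nitric oxide synthase, differed by 0.0085 ± 0.042 after vesicles and 0.039 ± 0.042 after cells. Vwf, the clotting glycoprotein stored in endothelium, differed by −0.036 ± 0.033 and −0.051 ± 0.033, and Plvap, which builds the diaphragms of fenestrae and caveolae in veins and some capillaries, by 0.10 ± 0.11 and −0.028 ± 0.11. Counting arrays against the control of their own experiment, 12 of 33 genes were above it on all 3 vesicle arrays (10.6% of all genes, 23.8% of the brighter genes) and 4 were below it (Dll4, Sox7, Sox18 and Vwf; 18.3% of all genes). On all 3 cell arrays 5 were above (Angpt2, Apln, Efnb2, Eng and S1pr1; 8.86% of all genes, 15.8% of the brighter genes), which is 15.2% of the module, and 2 below (Sox7 and Vwf; 17.5%). Across experiments, 5 genes had every vesicle array above both controls: Apln, Calcrl, Cd34, S1pr1 and Sox17. Of all genes 3.72% did, and of the brighter genes 7.27%. Among the 27 endothelial genes above the background level there were 3. Dll4 and Sox18 had every vesicle array below both controls (7.17% of all genes, 5.61% of the brighter genes).

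The module was also set out by vessel class. The 4 capillary genes, Cd34, Apln, Calcrl and Ramp2, were all higher after vesicles (median 0.13, against 0.0098 over the brighter genes) and after cells (median 0.023, against 0.020). In experiment 9 alone 3 of 4 were higher after vesicles and 2 of 4 after cells, with Cd34 at −0.14 after cells. Their mean-centred score, the mean over genes of the log2 value minus the gene's mean, was 0.061, 0.053 and 0.039 on the vesicle arrays, −0.014, 0.068 and 0.020 on the cell arrays, −0.11 on the sham array and −0.034 and −0.080 on the control arrays. Both controls lay below all 6 vesicle and cell arrays on this score, an order that rests on Apln, which is under the background level on every array. Without Apln, left out after the values were seen, the score of the other 3 genes was 0.067, 0.058 and 0.035 on the vesicle arrays, −0.030, −0.058 and 0.014 on the cell arrays, −0.0058 on the sham array and −0.020 and −0.060 on the control arrays. The vesicle arrays then still lay above both controls, and the cell arrays overlapped them.

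The 6 arterial genes, Sox17, Notch1, Notch4, Dll4, Hey1 and Efnb2, had 5 higher after vesicles (median 0.023) and 5 after cells (median 0.017), and the array scores of the groups overlapped, with control arrays at 0.045 and −0.047. The 5 venous and endocardial genes, Ephb4, Aplnr, Emcn, Vwf and Plvap, had 2 higher after vesicles (median −0.028) and 1 after cells (median −0.028), also with overlapping scores. The difference between the classes was not tested, and the classes hold few genes.

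Genes of the same classes outside the module gave a mixed picture. Of 13 other capillary genes 8 were higher after vesicles (median 0.043) and 9 after cells (median 0.073). Rgcc, a cell cycle regulator used as a capillary marker, read 8.38, 8.34 and 8.26 on the vesicle arrays, 8.18, 8.07 and 8.25 on the cell arrays, 8.32 on the sham array and 7.96 and 8.10 on the control arrays, a vesicle difference of 0.30 ± 0.075 (adjusted p = 0.675 in limma). The score of these 13 genes was 0.090, −0.040 and 0.021 on the vesicle arrays, −0.0034, 0.0063 and 0.054 on the cell arrays, −0.029 on the sham array and 0.0005 and −0.099 on the control arrays, and the groups overlapped.

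Of 12 other arterial genes 5 were higher after vesicles (median −0.0052) and 6 after cells (median −0.0012). Of 9 other venous genes 4 were higher after each. Vcam1, an adhesion molecule for white cells, stood at −0.13 ± 0.034 after vesicles and −0.14 ± 0.034 after cells (adjusted p = 0.675 and 0.682 in limma). Nr2f2 and Nrp2 went the other way after vesicles, at 0.13 ± 0.047 and 0.27 ± 0.13 (adjusted p = 0.675 for each in limma). After cells Nrp2 stood at 0.20 ± 0.13 and Selp at −0.083 ± 0.038. Of 18 further genes of all endothelium 9 were higher after vesicles (median 0.0012) and 10 after cells (median 0.0081).

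Among genes of other cell types, fibroblast and mural genes had medians further from 0 than the module. The part of other cell types in the endothelial values was not tested. After vesicles all 7 fibroblast genes were higher (median 0.20, led by Postn, a matrix protein of activated fibroblasts, at 0.40 ± 0.12) and 8 of 10 mural genes were (median 0.11, with Pdgfrb, the receptor of pericytes, at 0.22 ± 0.065). After cells 1 of 7 fibroblast genes (median −0.035) and 9 of 10 mural genes (median 0.077) were higher. Cardiomyocyte genes had medians of 0.012 after vesicles and 0.011 after cells, below those of the module. Macrophage genes had medians of 0.027 and −0.034.

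**Figure D4:**
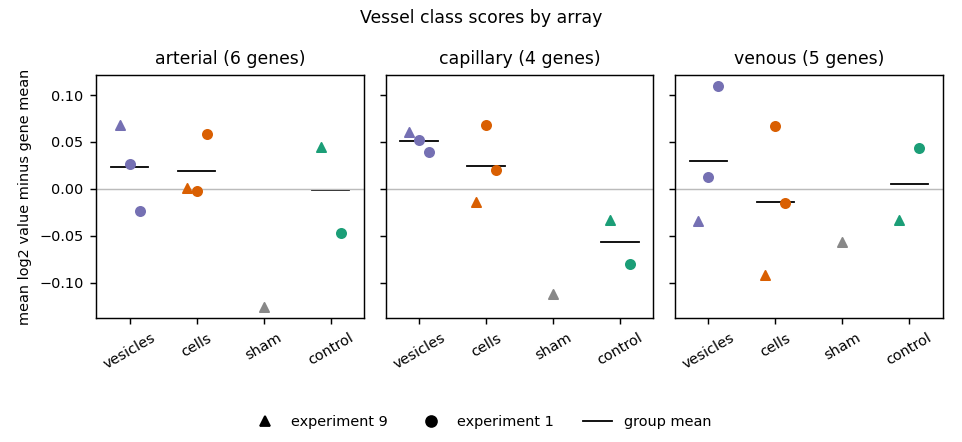
Score of the arterial (6 genes), capillary (4) and venous (5) members of the module on each array, as the mean over genes of the log2 value minus the gene's mean over 9 arrays, with triangles for experiment 9, circles for experiment 1 and a line at the group mean. In the capillary panel both control arrays lie below every vesicle and cell array and sham is lowest, which holds with Apln only; in the other panels the groups overlap.

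Vesicles and cells were also set against each other. By value 21 of 33 genes were higher after vesicles (46.7% of all genes, 43.8% of the brighter ones), with a median log2 difference of 0.015. Without cell array 1 the count was 12 of 33 (median −0.028). The direction also split by experiment. In experiment 9, which holds 1 vesicle and 1 cell array, 27 of 33 were higher (median 0.075), beside 41.7% of all genes and 51.8% of the brighter ones. In experiment 1, 10 of 33 were higher (median −0.029), beside 44.4% and 40.3%. Cd34 was the 1 gene with every vesicle array above every cell array (1.85% of all genes) and Dll4 the 1 gene with every vesicle array below (2.56%).

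The cell hearts differed between the experiments more than the vesicle hearts by value. Against the control array of its own experiment, the module had 9 of 33 genes higher after cells in experiment 9 (median −0.043). There 38.5% of all genes and 43.9% of the brighter genes were higher. In experiment 1 the module had 26 of 33 higher (median 0.077), beside 40.1% of all genes and 63.6% of the brighter genes. The brighter genes thus also had a larger share higher in experiment 1. Of the 27 endothelial genes above the background level, 6 were higher in experiment 9 and 21 in experiment 1. After vesicles the counts were 18 of 33 in experiment 9 (median 0.030) and 25 of 33 in experiment 1 (median 0.043). Of the brighter genes 48.0% and 54.3% were higher. Each experiment has 1 control array, so a low or high control shifts every difference of its experiment.

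The test of that difference between experiments, an interaction term with 2 residual degrees of freedom, called 0 of 33 genes and 0.0% of all genes after cells, and the same after vesicles. At an unadjusted p under 0.05 there were 9 endothelial genes after cells, where 18.8% of all genes reached it: Cdh5, Cldn5, Cd34, Sox7, Sox18, Notch4, Tek, Nos3 and S1pr1. All 9 had the lower difference in experiment 9, a pattern of 6.78% of all genes and 10.6% of the brighter ones. Of these Cdh5 ranked first: after cells it differed from control by −0.075 in experiment 9 and 0.37 in experiment 1, an interaction of −0.45. In this fit each group of experiment 9 has 1 array, and so has control in experiment 1. Its spread therefore comes only from vesicle arrays 2 and 3 and cell arrays 2 and 3. It holds no spread between controls or within experiment 9, so its p-values cannot decide whether the experiments differ. Notch4 had equal values within each of those pairs, so its own arrays gave the fit no spread. After vesicles 2 genes, Tek and Tie1, had an unadjusted p under 0.05, where 18.1% of all genes did.

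At equal treatment the experiments also differed in level by value, most for Plvap, Cldn5 and Aplnr. The module had 0 genes past the adjusted threshold, as had 0.0% of all genes, and 6 with an unadjusted p under 0.05. Of all genes 12.8% had one, and of the brighter genes 22.1%. Among the 27 endothelial genes above the background level there were 3. Efnb2 and Sox7 were higher in experiment 9 (6.2% of all genes, 18.0% of the brighter ones). Vwf, Plvap, Angpt2 and Cldn5 were lower (6.56% of all genes, 4.17% of the brighter ones).

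Vwf read 7.38 (vesicles), 7.39 (cells) and 7.40 (control) on the injected arrays of experiment 9, with 7.49 on its sham array, against 7.57 and 7.59 (vesicles), 7.51 and 7.60 (cells) and 7.64 (control) in experiment 1. Injected arrays of the experiments did not overlap and the sham array lay between them. The difference was −0.20 ± 0.026 (unadjusted p = 0.000526, adjusted p = 0.212 in limma).

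Plvap read 6.90 (vesicles), 6.74 (cells) and 6.74 (control) in experiment 9, with 7.29 on the sham array, against 7.24 and 7.59 (vesicles), 7.24 and 7.36 (cells) and 7.35 (control) in experiment 1. Here the sham array of experiment 9 sat among the arrays of experiment 1. The difference was −0.56 ± 0.087 (fold 0.679, adjusted p = 0.228 in limma), with the values of experiment 9 under the background level save on the sham array.

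Angpt2, also dim, read 5.66, 5.76 and 5.75 on the vesicle, cell and control arrays of experiment 9 and 5.67 on the sham array, against 5.86 and 5.99 (vesicles), 5.94 and 5.99 (cells) and 5.84 (control) in experiment 1, a difference of −0.20 ± 0.046. Together with Eng, picked out after its values were seen (−0.16 ± 0.080), these were the 4 genes with every injected array of experiment 9 below every array of experiment 1. That pattern held for 2.74% of all genes and 2.55% of the brighter ones. The reverse pattern held for 0 of 33 (4.18% of all genes, 12.5% of the brighter ones). Macrophage genes were lower in experiment 9 in 8 of 8 cases (median −0.26) and fibroblast genes in 6 of 7 (median −0.31), while cardiomyocyte genes were higher in 9 of 9 (median 0.072); their part in the endothelial differences was not tested.

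**Figure D5:**
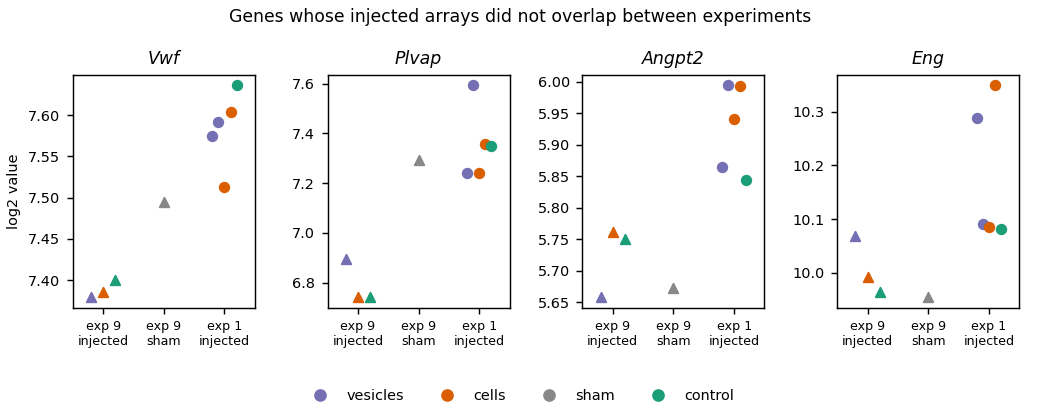
Log2 values of the 4 genes whose injected arrays did not overlap between the experiments, with the 3 injected arrays of experiment 9 at left, its sham array in the middle and the 5 arrays of experiment 1 at right, coloured by group. For Vwf and Plvap the sham array lies above the other arrays of experiment 9, and for Angpt2 and Eng it lies at their level or below.

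The sham heart was compared with control by value only, since 1 array gives no test. The sham array was the lowest of all 9 arrays for 15 of 33 endothelial genes, where 9.92% of all genes and 9.6% of the brighter genes had their lowest value there. Against control array 1 of the same experiment it was lower for 25 of 33 genes (40.9% of all genes, 48.7% of the brighter ones). The median difference was −0.094, where the median of all genes was 0.0. It lay below all 3 injected arrays of experiment 9 for 20 of 33 genes (20.2% of all genes, 29.9% of the brighter ones), and above all 3 for 4, Plvap, S1pr1, Sox17 and Vwf (18.0%).

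The genes lowest in sham crossed the roles. Of them, named here after their values were seen, Hey1 differed from control array 1 by −0.51, Dll4 by −0.48, Apln by −0.36, Cldn5 by −0.33, and the matrix protein Mmrn2 and the synthase Nos3 by −0.22 and −0.21. S1pr1 and Plvap went the other way, by 0.37 and 0.55. The score of the whole module was −0.11 on the sham array, against 0.0077 on control array 1 and −0.049 on control array 2. Fibroblast genes had their highest score on the sham array, 0.21, against −0.25 on control array 1, while the cardiomyocyte score was −0.016 against 0.038; with 1 sham array the part of these and of the lung transcripts on it was not tested. Centring each array on its median left 11 endothelial genes lowest in sham (7.72% of all genes) and a median of −0.11. Quantile normalization left 15 (9.34% of all genes) and −0.096.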

How the data were processed

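Expression of mouse hearts was measured on 9 Affymetrix whole-transcript arrays, labelled with biotin from Trizol-extracted RNA, per the labels' protocols. Deposited numbers were taken as log2 expression, 1 per probe set and array, since they run from 1.55 to 14.2; any background correction and normalization by the authors were not given in the sources used here. The submitters' processing notes name Partek alone. The columns have nearly equal medians, so no further scaling was applied. With so few arrays, precision is limited by their number.

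Of 80202 probe sets, 32750 are listed in the platform annotation, 30604 of them under a single symbol; the 2146 with more were left out. A RefSeq table of GRCm38.p6 gave current symbols by Entrez number (827 differed). For 355 genes with several probe sets the one with the highest mean over 9 arrays was kept, giving 30142 genes. Brighter genes are the 6667 whose mean exceeds the 95th percentile of 10553 negative control probe sets.

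Arrays were grouped by the treatment label; replicate numbers only name the arrays, in accession order. limma 3.58.1 under R 4.3.3 (lmFit, eBayes) fitted 8 arrays of the 3 injected groups with experiment as a fixed block (4 residual and 1.18 prior degrees of freedom), two-sided, with Benjamini-Hochberg adjustment over all genes and calls at 0.05. Errors after ± are standard errors (SE) of the fitted log2 differences, and folds are 2 raised to those differences. The interaction fit added treatment by experiment. Lists are described by counts and medians beside those of all genes, and have no test. The fit was tested on simulated data.

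The members, their vessel classes and the other lists were chosen with earlier results of these data known. Array values are given for the 5 members with the lowest unadjusted p in each comparison and for at least 1 member per role. They are also given for Hey1 and Ramp2, and for Sox18, singled out by non-overlap after its values were seen. For Sox17 and Eng, also singled out by non-overlap, the text gives differences only. From other lists at most 3 genes with the lowest p are named. Alternatives left out each array, pooled sham with control, dropped the block, changed normalization, filter, probe set rule or variance model; a block on the VTS number, the capillary score without Apln and other scalings for sham were added after the data were seen.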

Additional observations from a re-analysis of the deposited data

Results flagged for a closer look

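The median difference of the 33 endothelial genes from the control of the same experiment had opposite signs after cells. It was −0.043 for cell array 1 in experiment 9, and 0.042 for cell array 2 and 0.086 for cell array 3 in experiment 1. The brighter genes had medians of 0.0, 0.011 and 0.045 on these arrays. The difference of these medians between experiments was not tested; the interaction of single genes, tested with limma, called 0 of 33.

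Transcripts of lung epithelium, outside the comparisons above, stood above the control arrays on 2 arrays. The mean log2 value of 10 such genes was 6.94 on vesicle array 3 and 5.50 on the sham array, against 5.28 and 5.31 on the control arrays. Without vesicle array 3 the median of the endothelial genes after vesicles was 0.028. Of 9 endothelial genes much used in lung, Calcrl among them, 6 were higher after vesicles (median 0.13) and 7 after cells (median 0.080). Of the brighter genes 56.9% and 66.5% were. The score of these 9 genes was 0.040, 0.060 and 0.034 on the vesicle arrays. The part of lung RNA in the endothelial values was not tested. No group has 4 arrays or more, so single arrays were not tested as outliers.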

How the results depend on the processing

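Between treatments 0 endothelial genes passed the adjusted threshold under any of 19 alternatives, and between experiments under any of 6; the interaction was fitted in 1 way only. Over all genes 5 counts moved from 0: without control replicate 1 limma called 823 genes after vesicles (200 higher) and 901 after cells (207 higher), with the sham array pooled with control it called 1 gene after cells, and least squares without moderation called 4 genes after vesicles (1 higher) and 2 between experiments (1 higher). The fit without a control replicate keeps 1 control array and takes its spread from the other groups. Leaving out each array in turn gave 0 to 823 calls after vesicles, 0 to 901 after cells and 0 for vesicles against cells. The median of the endothelial genes lay between 0.0069 and 0.072 after vesicles, between −0.011 and 0.069 after cells and between −0.028 and 0.035 for vesicles against cells when 1 array was left out. The sign of a gene was kept in every alternative by 13 of 33 genes after vesicles, 10 after cells and 14 between vesicles and cells. Values that turned sign include Dll4 after vesicles (0.044 with sham pooled), Sox18 after vesicles (0.044 without control replicate 1) and Cldn5 after vesicles (0.081 without control replicate 1) and after cells (−0.11 without control replicate 2); the cause was not tested. Every title carries the same replicate number, but the VTS numbers form 3 vesicle and cell pairs. Deviations from the group means correlated by 0.184 (VTS 1), 0.031 (VTS 2) and 0.123 (VTS 3) across all genes within these pairs, and by −0.314 to 0.174 across numbers. Among the brighter genes they correlated by −0.214, 0.184 and 0.143 within pairs, and by −0.292 to 0.146 across numbers. Deviations from a mean of 3 arrays cancel out, so these correlations depend on each other, and VTS 3 is also experiment 9. They cannot decide on the pairing, which is not established. With the VTS number as a block, chosen after the data were seen (3 residual degrees of freedom), limma called 0 genes in each treatment comparison, and the endothelial medians were 0.029 after vesicles, 0.021 after cells and 0.015 between them. Genes at the background level, 6 of 33, allow no firm reading of small differences.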

Other observations

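Endothelial genes outside the module that stood apart by experiment were not described above. Fabp4, a fatty acid carrier of capillary endothelium, was 0.18 ± 0.032 higher in experiment 9 (adjusted p = 0.251 in limma), and Myct1, a gene of all endothelium, 0.28 ± 0.052 (adjusted p = 0.255). Selp, the adhesion molecule P-selectin of venous endothelium and platelets, stood at −0.18 ± 0.031 (adjusted p = 0.251), and Icam1, another adhesion molecule for white cells, at −0.18 ± 0.052 (adjusted p = 0.34). All 6 endocardial genes were lower in experiment 9 (median −0.082), with Cytl1 at −0.33 ± 0.046 (adjusted p = 0.212). Of 6 lymphatic genes 5 were higher after vesicles (median 0.080) and 5 after cells (median 0.11), and 0 of them had an unadjusted p under 0.05 in either.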
